A study of Mus musculus with 20 samples.

Results

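Gpr165, Bank1, Serpinf1, Sult1a1 and Rnase12 are 5 genes whose levels in microglia were compared across 4 mouse genotypes. They were chosen from these same arrays for large falls with 5XFAD, or for a changed response to 5XFAD without Trem2, so those differences are given here as descriptions, without a test. They are 5 of 19751 genes that the array table names with a single symbol, and of the 12728 of these that passed a filter on low values; each has 1 probe set, so no choice between probe sets arose. All 5 passed that filter, which asks for a value above the array's 40th percentile on at least 4 arrays.

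Microglia, the resident macrophages of the brain, had been sorted from brains of mice aged 8.5 months and profiled on one-colour arrays. The groups were WT (n = 4), mice lacking Trem2, a lipid-sensing receptor of microglia (Trem2-/-, n = 4), 5XFAD mice (n = 5) and 5XFAD mice lacking Trem2 (Trem2-/-5XFAD, n = 6). 5XFAD mice express mutant human APP and presenilin from transgenes that the Thy1 promoter drives in neurons, and deposit amyloid plaques. Trem2-/- denotes loss of the gene in all cells, not in microglia alone. The labels call the animals littermates, and state neither their sex nor how the cells were gated. The p-values measure the spread between arrays. One further array, whose title and genotype disagree (WT against Trem2-/-), entered no comparison.

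Microglia near amyloid plaques are known to lose part of the expression program that marks them in the healthy brain and to gain a program for lipid handling and phagocytosis, and Trem2 is needed for much of that switch. The 5 genes belong to different families and so touch different parts of microglial biology. Gpr165 encodes an orphan G protein-coupled receptor. Bank1 encodes a scaffold protein that in B cells links the antigen receptor to the kinase Lyn and to calcium release. Serpinf1 encodes pigment epithelium-derived factor, a secreted serpin that does not inhibit proteases and that supports neurons and restrains vessel growth. Sult1a1 encodes a cytosolic sulfotransferase that adds sulfate to phenols, drugs and hormones. Rnase12 encodes a member of the ribonuclease A family whose function is little known.

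The arrays matched their labels for the targeted gene: Trem2 averaged 11.31 ± 0.12 on the log2(intensity + 1) scale in WT (SD, n = 4) and 6.96 ± 0.08 in Trem2-/- (SD, n = 4), and 7.05 ± 0.29 in Trem2-/-5XFAD (SD, n = 6). All 9 measured microglial markers were above the 40th percentile on all 19 assigned arrays. Their mean was lower in 5XFAD, 10.94 to 11.11, than in WT, 11.39 to 11.61, and 6 of the 9 fell. The mean of 10 markers of border macrophages, the macrophages of the brain's membranes and vessels, was 5.52 to 6.16 in 5XFAD, 6.32 to 7.10 in WT, 6.64 to 7.61 in Trem2-/- and 6.45 to 7.09 in Trem2-/-5XFAD, and 4 of the 10 fell in 5XFAD. The mean of 7 astrocyte markers was higher in 5XFAD (5.46 to 5.91) than in WT (5.11 to 5.30), with Trem2-/- at 4.77 to 5.12 and Trem2-/-5XFAD at 5.17 to 5.42. Of the 5 tested, 1 rose and 1 fell in 5XFAD: Gfap rose by 2.16 (limma adjusted p = 2.9e-08), and Slc1a3 differed by -0.73 (limma adjusted p = 0.00457). Aqp4 and Aldh1l1 were above the 40th percentile on 0 of 19 arrays. The mean of 6 markers of T and NK cells was 3.67 to 3.97 in 5XFAD, 3.91 to 4.16 in WT, 4.09 to 4.45 in Trem2-/- and 3.85 to 4.33 in Trem2-/-5XFAD. Cd3g, Nkg7 and Gzma were above the 40th percentile on 0 of 19 arrays. Of the 3 tested in 5XFAD minus WT, only Klrd1 was called (-1.42, limma adjusted p = 0.0267), while Cd3e differed by -0.04 and Cd8a by 0.17. Salivary gland transcripts were high on WT 1, WT 2, 5XFAD 1 and 5XFAD 2 (mean 6.28 to 7.14), and neutrophil markers were high on Trem2-/- 1 and Trem2-/-5XFAD 1 (6.11 and 6.38). Smaller amounts were seen on other arrays, with salivary means of 5.15 on Trem2-/- 3, 4.11 on Trem2-/- 2 and 4.08 on WT 4, and neutrophil means of 5.54 on Trem2-/-5XFAD 6 and 5.01 on 5XFAD 3; the alternatives that leave out arrays for these transcripts keep those in. Xist, which marks cells of females, was high on 3 of 4 WT, 3 of 4 Trem2-/-, 1 of 5 5XFAD and 0 of 6 Trem2-/-5XFAD arrays. The part of these differences in the results below was not tested, except where values without those arrays or with Xist in the model are given. As the samples are bulk RNA, fewer cells of a type and less RNA per cell cannot be told apart.

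The 5 genes followed 3 courses across the genotypes. Gpr165, Bank1 and Serpinf1 were about 4-fold lower in 5XFAD than in WT and took an intermediate level in Trem2-/-5XFAD. Sult1a1 was lower with 5XFAD to about the same level with and without Trem2. Rnase12 was lower than WT in Trem2-/-, in 5XFAD and, with wide scatter, in Trem2-/-5XFAD. For scale, of the 12728 genes tested in 5XFAD minus WT, 6.77% were called lower and 8.23% higher at an adjusted p under 0.05 (limma, Benjamini-Hochberg). Since the genes were chosen on this contrast, nothing is read from their place in it, also where a rank is given below. The share of all tested genes whose groups do not overlap was not counted, so nothing is read from groups said to be apart.

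**Figure D1:**
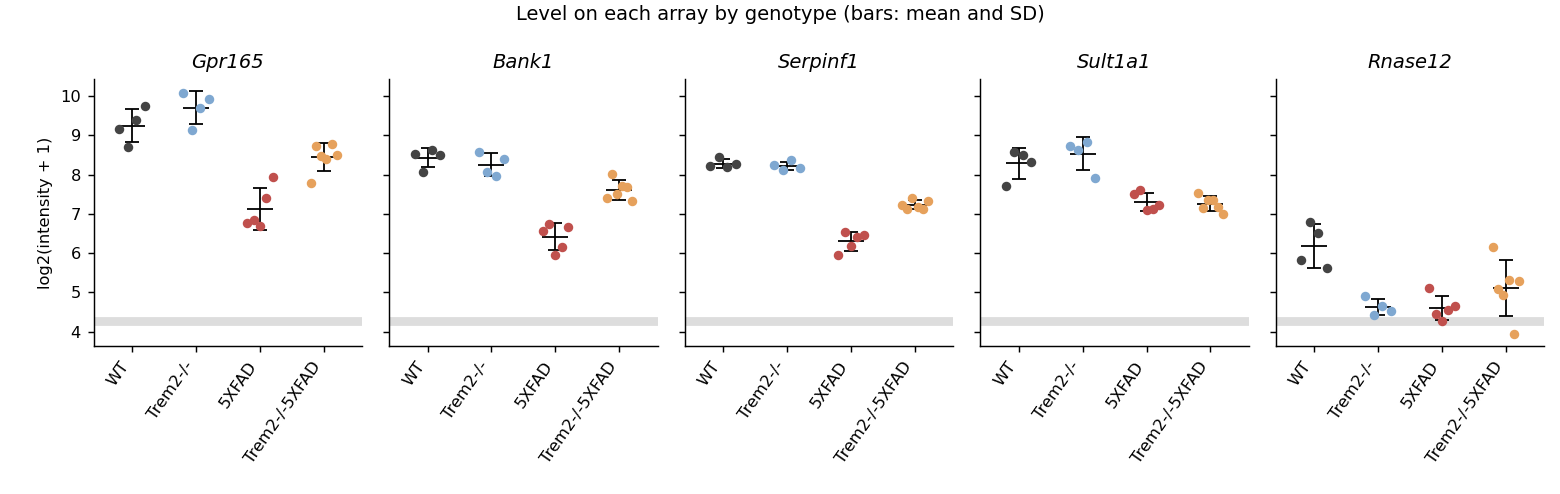
Log2(intensity + 1) of Gpr165, Bank1, Serpinf1, Sult1a1 and Rnase12 on each of the 19 assigned arrays, by genotype; points are arrays, bars the mean and SD, and the grey band spans the 40th percentiles of the arrays (4.16 to 4.34). For Bank1 and Serpinf1 no 5XFAD array reaches a Trem2-/-5XFAD array, for Sult1a1 these groups overlap, and for Rnase12 all groups but WT come close to the grey band.

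The orphan receptor Gpr165 (Entrez 76206, chromosome X) had the largest difference of the 5. In WT its log2 values were 9.17, 8.70, 9.38 and 9.73, and in 5XFAD they were 6.76, 6.84, 6.69, 7.41 and 7.94. All 5XFAD arrays lay below all WT arrays. The difference, 5XFAD minus WT, was -2.12 ± 0.26 (SE; 95% interval -2.66 to -1.57), a level 4.35-fold lower, and 1 of the 12728 tested genes had a larger fall. Without Trem2 the knockout arrays stood at 10.08, 9.13, 9.69 and 9.94, and the 6 Trem2-/-5XFAD arrays ran from 7.79 through a median of 8.48 to 8.78. Again no array of the plaque-bearing group reached the group without plaques, but the difference was -1.26 ± 0.25 (95% interval -1.79 to -0.74), 59.6% of that with Trem2. Trem2-/-5XFAD exceeded 5XFAD by 1.32 ± 0.24 (95% interval 0.82 to 1.81), with the lowest Trem2-/-5XFAD array below the highest 5XFAD array. The gene scattered more within groups (pooled SD 0.44) than Bank1 or Serpinf1.

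Because Gpr165 is on the X chromosome and Xist-high arrays were unevenly spread, its values were also set against Xist. WT 2, the WT array with low Xist, had the lowest WT value of Gpr165 (8.70), whereas 5XFAD 1, the 5XFAD array with high Xist, stood at 6.76 among 5XFAD arrays of 6.69 to 7.94. Trem2-/- 4, the low-Xist array of its group, had 9.94, above 2 of the 3 high-Xist arrays. With Xist in the model the difference between 5XFAD and WT was -2.13, against -2.12 without it.

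Bank1, the B-cell scaffold gene (Entrez 242248, chromosome 3), stood at 8.53, 8.07, 8.62 and 8.51 in WT and at 6.56, 6.74, 5.94, 6.16 and 6.67 in 5XFAD. The groups did not overlap, and the difference was -2.02 ± 0.18 (95% interval -2.39 to -1.64), 4.05-fold lower. In Trem2-/- it was 8.58, 8.06, 7.96 and 8.40, and in Trem2-/-5XFAD it ran from 7.33 through a median of 7.59 to 8.01. These groups touched, the highest Trem2-/-5XFAD array lying above the lowest Trem2-/- array. Without Trem2 the difference with 5XFAD was -0.65 ± 0.17 (95% interval -1.01 to -0.29), 32.1% of that with Trem2, the smallest share among Gpr165, Bank1 and Serpinf1. Every Trem2-/-5XFAD array exceeded every 5XFAD array, by 1.19 ± 0.16 on average (95% interval 0.85 to 1.53), yet all stayed below the 4 WT arrays.

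Since Bank1 is best known from B cells, B-cell markers were looked up on the same arrays. The mean of 9 such markers was 4.51 to 4.65 in WT, 4.35 to 4.42 in Trem2-/-, 4.29 to 4.52 in 5XFAD and 4.38 to 4.59 in Trem2-/-5XFAD, near the 40th percentile of the arrays. Cd79a, Ms4a1 and Fcrla, defining genes of B cells, were above that percentile on 0 of 19 arrays, while Cd79b (6.74 to 8.08) and Cd22 (5.51 to 7.28) were above it on all 19 and Ighm on 16. Of the 6 markers tested, only Cd79b, a chain of the B-cell receptor complex, was called, lower by 0.60 in 5XFAD (limma adjusted p = 0.0479).

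Serpinf1, the gene of the secreted neurotrophic serpin (Entrez 20317, chromosome 11), was the tightest of the 5, with a pooled SD within groups of 0.16. WT arrays stood at 8.21, 8.44, 8.20 and 8.27, and 5XFAD arrays at 5.95, 6.53, 6.17, 6.40 and 6.45. The gap between the groups was wider than the spread within either, and the difference was -1.98 ± 0.11 (95% interval -2.22 to -1.74), 3.95-fold lower. Trem2-/- arrays, at 8.24, 8.11, 8.36 and 8.17, overlapped WT. Trem2-/-5XFAD arrays ran from 7.12 through a median of 7.20 to 7.41, and touched neither 5XFAD nor the groups without plaques. Their difference from Trem2-/- was -0.99 ± 0.11 (95% interval -1.22 to -0.76), 50.1% of the difference with Trem2, and they exceeded 5XFAD by 0.93 ± 0.10 (95% interval 0.71 to 1.14). Markers of fibroblasts and vascular mural cells, other sources of this protein, were near the 40th percentile (mean 4.10 to 4.26 in WT and 4.02 to 4.15 in 5XFAD), none of 5 tested was called at an adjusted p under 0.05 by limma, and Lum, Pdgfra and Rgs5 were above it on 0 of 19 arrays. Col1a1, Col1a2, Col3a1, Igf2 and Acta2 were above it on all 19, and Acta2 differed by -0.47 in 5XFAD minus WT (adjusted p = 0.0551).

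The changed response itself, the difference with 5XFAD in mice without Trem2 minus that in mice with Trem2, was 0.86 ± 0.36 for Gpr165 (95% interval 0.10 to 1.61), 1.37 ± 0.25 for Bank1 (0.85 to 1.89) and 0.99 ± 0.16 for Serpinf1 (0.66 to 1.32). All 3 values are above 0, meaning a smaller fall without Trem2, but the intervals overlap, so the order of the 3 genes by this measure is not settled. Of all tested genes, 1.02% were called higher and 1.58% lower in this contrast. In Trem2-/-5XFAD minus 5XFAD, 3.21% were called higher and 4.46% lower, and in Trem2-/-5XFAD minus Trem2-/- 1.63% were called higher and 0.558% lower. The rule used these changed responses, so the shares serve only as a scale.

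**Figure D2:**
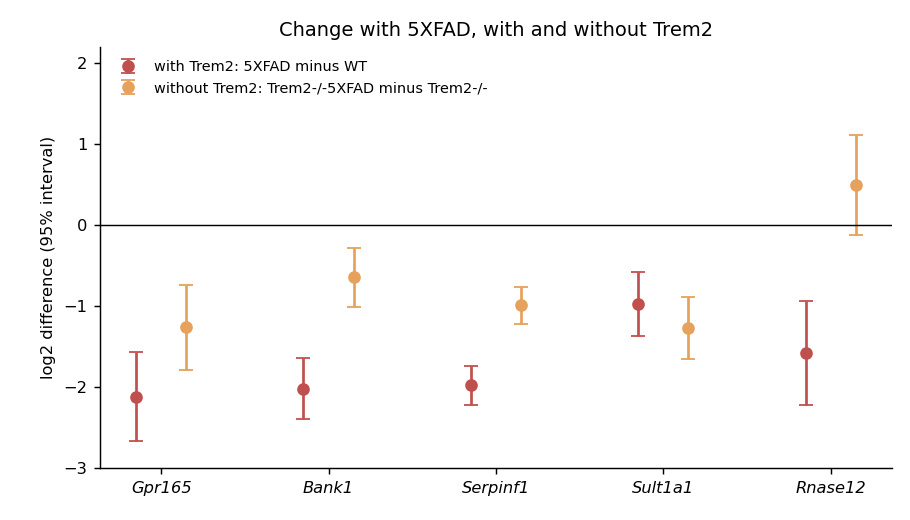
Log2 difference with 5XFAD for each of the 5 genes, in mice with Trem2 (5XFAD minus WT) and without it (Trem2-/-5XFAD minus Trem2-/-), each with its 95% interval from limma. The second difference is closer to 0 for Gpr165, Bank1 and Serpinf1, overlaps the first for Sult1a1 (-0.98 and -1.27), and lies on the other side of 0 for Rnase12 (-1.58 and 0.49).

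As Gpr165, Bank1 and Serpinf1 had a like order of group levels, the 250 bases before their start sites are shown, from the RefSeq promoter table on GRCm38.p6, written 5′ to 3′ on the strand of the gene and in lower case. Capitals mark matches to the motifs searched on both strands: GGAAGT, a sequence bound by ETS factors such as the macrophage factor PU.1, and TATAAA, the TATA box. TGAGTCA, an AP-1 site, and CACGTG, an E-box, were searched too. Other forms of these sites were not searched. The windows are chrX:96713218-96713467 (+ strand), chr3:136326067-136326316 (- strand) and chr11:75422624-75422873 (- strand).
Gpr165: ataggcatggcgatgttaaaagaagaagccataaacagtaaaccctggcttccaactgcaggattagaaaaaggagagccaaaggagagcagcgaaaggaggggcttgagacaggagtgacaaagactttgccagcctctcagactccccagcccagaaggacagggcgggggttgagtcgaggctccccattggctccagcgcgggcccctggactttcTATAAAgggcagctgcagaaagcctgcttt
Bank1: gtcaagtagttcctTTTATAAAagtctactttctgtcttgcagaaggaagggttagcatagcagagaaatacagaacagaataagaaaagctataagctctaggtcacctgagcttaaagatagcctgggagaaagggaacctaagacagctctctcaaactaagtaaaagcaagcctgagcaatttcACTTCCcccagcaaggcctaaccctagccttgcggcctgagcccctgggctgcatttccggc
Serpinf1: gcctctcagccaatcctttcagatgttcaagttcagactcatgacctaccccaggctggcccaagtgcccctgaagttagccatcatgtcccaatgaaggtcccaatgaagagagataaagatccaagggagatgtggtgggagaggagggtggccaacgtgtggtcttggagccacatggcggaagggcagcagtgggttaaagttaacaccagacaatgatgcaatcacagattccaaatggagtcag
Gpr165 has a TATAAA from 30 to 25 bases before its start. Bank1 has overlapping TATAAA matches on both strands, beginning 236 and 234 bases before the start, and a GGAAGT on the reverse strand, read above as ACTTCC, from 62 to 57 bases before the start. Serpinf1 has none of the 4 motifs in this window. Among 32536 distinct promoter windows of this length, GGAAGT was found in 19.8%, TATAAA in 12.3%, CACGTG in 6.04% and TGAGTCA in 4.45%. Of the 5 genes, Bank1 and Sult1a1 hold GGAAGT, Gpr165 and Bank1 hold TATAAA, and 0 hold CACGTG or TGAGTCA. The 3 genes shown thus share no motif of these 4; a match or its lack says only which letters are in the window.

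Sult1a1, the phenol sulfotransferase gene (Entrez 20887, chromosome 7), behaved differently. WT arrays stood at 7.72, 8.59, 8.51 and 8.33, and 5XFAD arrays at 7.51, 7.60, 7.10, 7.12 and 7.21. The groups did not overlap, but the lowest WT array, WT 1, lay just above the highest 5XFAD array. The difference was -0.98 ± 0.19 (95% interval -1.37 to -0.58), 1.97-fold lower, and 123 tested genes had a larger fall. In Trem2-/- the values were 8.74, 8.64, 8.84 and 7.92, and in Trem2-/-5XFAD they ran from 7.01 through a median of 7.25 to 7.54. Again the groups were apart, and the difference was -1.27 ± 0.18 (95% interval -1.65 to -0.89), 130% of that with Trem2. Trem2-/-5XFAD and 5XFAD overlapped throughout: their difference was -0.05 ± 0.17, with a 95% interval of -0.41 to 0.31. That interval leaves out differences above 0.31, among them those of 0.93 to 1.32 seen for Gpr165, Bank1 and Serpinf1, but not smaller ones within it. As the genes were chosen on such responses, nothing more is read from this comparison. The response without Trem2 differed from that with it by -0.30 ± 0.26 (95% interval -0.84 to 0.25). This value was -0.11 without WT 1 and 0.0015 without WT 1, WT 2, 5XFAD 1 and 5XFAD 2.

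Rnase12, of the ribonuclease A family (Entrez 497106, chromosome 14), was the weakest of the 5 against its arrays' 40th percentiles (4.16 to 4.34). WT arrays stood at 5.81, 6.80, 6.52 and 5.61, and Trem2-/- arrays at 4.90, 4.42, 4.65 and 4.53. No Trem2-/- array reached a WT array. The difference, Trem2-/- minus WT, was -1.56 ± 0.32 (95% interval -2.23 to -0.89, limma adjusted p = 0.0285), 2.95-fold lower. It is a component of the changed response on which the genes were chosen, so its p-value is no independent evidence. Of all tested genes 0.228% were called lower and 0.385% higher in this contrast, 78 genes in all. The p-value was also close to the threshold. The adjusted p was 0.0518 without WT 2, 0.0995 without WT 3, and 0.0580, 0.0809, 0.0654 and 0.0661 without Trem2-/- 1, 2, 3 and 4, and it was 0.0722 without WT 1, WT 2, 5XFAD 1 and 5XFAD 2; the difference was negative in all 32 alternatives and past the threshold in 23. The WT arrays with salivary gland transcripts had 5.81 and 6.80, and the other WT arrays 6.52 and 5.61, so the pairs overlapped.

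In 5XFAD, Rnase12 stood at 5.10, 4.45, 4.28, 4.54 and 4.64, below every WT array and about as low as in Trem2-/-. The difference from WT was -1.58 ± 0.31 (95% interval -2.22 to -0.94), 2.99-fold lower. In Trem2-/-5XFAD it ran from 3.95 through a median of 5.18 to 6.15, which spanned the 5XFAD range and reached into the WT range. The highest value was on Trem2-/-5XFAD 1, the array with high neutrophil markers. Trem2-/-5XFAD exceeded 5XFAD by 0.51 ± 0.28, with an interval that includes 0 (-0.06 to 1.09), and Trem2-/- by 0.49 ± 0.29 (-0.12 to 1.11). Without Trem2-/-5XFAD 1 these differences were 0.31 and 0.29. The changed response was 2.07 ± 0.42 (95% interval 1.19 to 2.96). The difference between Trem2-/- and WT given above is part of this value, and the Trem2-/- arrays already stood close to the 40th percentile. Fold differences at such low levels can be understated on this scale.

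The other 4 genes did not pass in Trem2-/- minus WT, a contrast that for them too enters the changed response. Gpr165 differed by 0.46 ± 0.28 (95% interval -0.11 to 1.04, limma adjusted p = 0.533), Bank1 by -0.18 ± 0.19 (-0.58 to 0.21, adjusted p = 0.762), Serpinf1 by -0.06 ± 0.12 (-0.31 to 0.19, adjusted p = 0.895) and Sult1a1 by 0.25 ± 0.20 (-0.17 to 0.66, adjusted p = 0.676). The intervals bound the effect of losing Trem2 in the plaque-free brain most tightly for Serpinf1. For Gpr165 the difference was 0.28 without WT 2 and 0.15 without WT 1, WT 2, 5XFAD 1 and 5XFAD 2.

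In the order of group means, Bank1 and Serpinf1 ran WT, Trem2-/-, Trem2-/-5XFAD, 5XFAD from high to low, and Gpr165 ran Trem2-/-, WT, Trem2-/-5XFAD, 5XFAD. In all 3 the first and second groups overlapped. Trem2-/-5XFAD overlapped the group ranked just above it for Gpr165 and Bank1 but not for Serpinf1, and was apart from 5XFAD for Bank1 and Serpinf1 but not for Gpr165. Sult1a1 ran Trem2-/-, WT, 5XFAD, Trem2-/-5XFAD, with overlap in the first pair and in the last pair. Rnase12 ran WT, Trem2-/-5XFAD, Trem2-/-, 5XFAD, and every neighbouring pair in that order overlapped, although WT stood apart from Trem2-/- and 5XFAD. Against WT, the Trem2-/-5XFAD arrays were lower by -0.83 ± 0.17 for Bank1, -1.05 ± 0.11 for Serpinf1 and -1.03 ± 0.18 for Sult1a1 (log2 difference ± SE), without overlap. For Gpr165 (-0.80 ± 0.25) and Rnase12 (-1.07 ± 0.29) these groups overlapped.

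The tested genes whose 19 values, centred on each gene's mean, lay nearest to those of each of the 5 were found by root mean square difference. For Gpr165, whose own spread about its mean was 1.03, these were Bank1 (0.433), Serpinf1 (0.458) and Il7r, the interleukin-7 receptor chain (0.502). For Bank1, with a spread of 0.819, they were the C-type lectin gene Clec4a2 (0.277), the uroplakin gene Upk1b (0.300) and Serpinf1 (0.336). For Serpinf1, with a spread of 0.808, they were Clec4a2 (0.272), the crystallin gene Crybb1 (0.301) and Gp9, a platelet glycoprotein gene (0.310). As Gpr165, Bank1 and Serpinf1 were chosen for very large falls with 5XFAD, which dominate this measure, their nearness to each other is largely set by the choice. Bank1 and Serpinf1 shared Clec4a2, which differed by -1.99 ± 0.17 in 5XFAD minus WT and by 1.24 ± 0.15 in Trem2-/-5XFAD minus 5XFAD.

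Sult1a1, with a spread of 0.624, had as its nearest the transcription factor gene Mycl (0.318), the calcium channel subunit gene Tmem37 (0.327) and the lipopolysaccharide receptor gene Tlr4 (0.335). These too differed with 5XFAD both with Trem2 (-0.85 ± 0.17, -0.79 ± 0.13 and -1.04 ± 0.16) and without it (-0.67 ± 0.17, -0.61 ± 0.12 and -0.56 ± 0.15). Rnase12 had no close match: with a spread of 0.755, its nearest genes were Cyren (0.522), Mir142 (0.530) and 0610040B10Rik (0.550). All arrays share one processing, and genes chosen for likeness to the 5 are given no test.

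Related genes from 7 lists were counted beside the 5. Of 16 tested G protein-coupled receptors of microglia, 5 fell and 4 rose in 5XFAD, with a median difference of 0.07 against -0.02 over all genes. Adgrg1, an adhesion receptor typical of resting microglia, fell by 1.06 ± 0.10 (limma adjusted p = 1.4e-07), and Gpr34, a lysophosphatidylserine receptor, fell by 0.69 ± 0.14 (adjusted p = 0.00118). Gpr65, a proton-sensing receptor, rose by 2.28 ± 0.26 (adjusted p = 1.6e-06), and Gpr84, a receptor for medium-chain fatty acids, rose by 0.76 ± 0.17 (adjusted p = 0.00328). The fall of Gpr165 was thus accompanied by receptors moving both ways. The number that fell was 3 when WT 1, 5XFAD 1 or 5XFAD 3 was left out, with Xist in the model and with a replicate block; with only the WT and 5XFAD groups in the fit, 3 fell and 2 rose. Adgrg1 and Gpr65 went back part of the way without Trem2, by 0.72 ± 0.09 (adjusted p = 1.5e-05) and -1.31 ± 0.23 (adjusted p = 8.0e-04) in Trem2-/-5XFAD minus 5XFAD.

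Among 16 tested genes of the receptor signalling that BANK1 takes part in, 6 fell and 0 rose (8 fell and 0 rose at an unadjusted limma p under 0.05), with a median of -0.28. They were Tlr9, the sensor of unmethylated DNA (-0.68 ± 0.11, adjusted p = 2.0e-04), the kinase genes Mapk14 (-0.57 ± 0.12, adjusted p = 0.00221), Pik3cd (-0.56 ± 0.13, adjusted p = 0.00491) and Syk (-0.38 ± 0.10, adjusted p = 0.00784), and the calcium release channel genes Itpr3 (-0.54 ± 0.12, adjusted p = 0.00272) and Itpr2 (-0.46 ± 0.12, adjusted p = 0.00839). Itpr1 and Lyn were not analysed here. All 6 differences were well below that of Bank1 in size, but Bank1 was chosen for its response to 5XFAD, so nothing is read from that comparison. Without WT 1, WT 2, 5XFAD 1 and 5XFAD 2, 4 of the 16 fell. In Trem2-/-5XFAD minus 5XFAD, 3 of the 16 rose and 0 fell: Tlr9 by 0.44 ± 0.10 (adjusted p = 0.00872), Pik3cd by 0.50 ± 0.12 (adjusted p = 0.0102) and Syk by 0.29 ± 0.09 (adjusted p = 0.0403).

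Of 13 other serpins on the table, 7 stayed below the filter. Of the 6 tested, 2 rose and 0 fell (0 also at an unadjusted p under 0.05): Serpinb6a, an intracellular protease inhibitor, by 1.27 ± 0.18 (adjusted p = 2.8e-05), and Serpinb6b by 1.17 ± 0.27 (adjusted p = 0.00492). These are close paralogs, and their probe sets may share signal. Outside 5XFAD, Serpinb6b stayed near or below the arrays' 40th percentiles (4.16 to 4.34). It reached at most 3.72 in WT, 4.21 in Trem2-/- and 3.87 in Trem2-/-5XFAD, with a median of 4.95 in 5XFAD. Serpinb6b thus passed the filter mainly through 5XFAD, so nothing is read from its rise, which was 0.65 with a pseudocount of 16. Without WT 1, WT 2, 5XFAD 1 and 5XFAD 2, 1 of these 2 serpins, Serpinb6a, was called. Of 5 genes whose products have been described as receptors for the Serpinf1 protein, 0 fell and 1, the laminin receptor gene Rpsa, rose, by 0.38 ± 0.09 (adjusted p = 0.00821), a call lost without those 4 arrays (adjusted p = 0.164). The lipase gene Pnpla2, the first such receptor described, differed by -0.14 ± 0.13 (adjusted p = 0.527) and the plexin-domain gene Plxdc2 by 0.25 ± 0.12 (adjusted p = 0.192).

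For Sult1a1, 9 of 16 related genes on the table were below the filter, among them 8 other cytosolic sulfotransferases. Of the 7 tested, 0 rose and 0 fell (0 also at an unadjusted limma p under 0.05), with differences from -0.10 to 0.31 and a median of 0.01. Papss1, which makes the sulfate donor that SULT1A1 uses, differed by -0.02 ± 0.13 (adjusted p = 0.951), and Slc35b2, which carries that donor into the Golgi, by 0.03 ± 0.10 (adjusted p = 0.894). All these differences were smaller in size than that of Sult1a1. Sult1a1 was itself chosen from these arrays for its response, so nothing is read from that comparison. The related genes below the filter were not tested.

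Of 12 other genes of the ribonuclease A family and its inhibitor on the table, 8 were below the filter, and of the 4 tested 1 fell and 0 rose. The one that fell was Rnase6, an antimicrobial ribonuclease of myeloid cells and the tested gene next to Rnase12 on its chromosome. It averaged 8.07 ± 0.64 in WT (SD, n = 4), 7.56 ± 0.26 in Trem2-/- (n = 4), 6.61 ± 0.73 in 5XFAD (n = 5) and 7.14 ± 0.33 in Trem2-/-5XFAD (n = 6), and fell by 1.46 ± 0.31 in 5XFAD (adjusted p = 0.00216). In Trem2-/- minus WT it differed by -0.51 ± 0.33 (adjusted p = 0.560), where Rnase12 had -1.56 ± 0.32. The ribonuclease inhibitor gene Rnh1 differed by 0.16 ± 0.10 in 5XFAD (adjusted p = 0.352). Probe sets of these genes may share signal where their sequences are alike.

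For comparison, of 19 tested genes that mark homeostatic microglia 15 fell and 0 rose in 5XFAD, with a median of -0.55, led by Crybb1 (-1.55 ± 0.13, adjusted p = 4.5e-08). In Trem2-/-5XFAD minus 5XFAD 10 of these rose and 0 fell, and in Trem2-/- minus WT 0 passed (limma; 3 were lower at an unadjusted p under 0.05). The changed response passed for 7 of them, each with a smaller fall without Trem2. No test compared these genes with the 5. The list was chosen with earlier results of these data known.

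**Figure D3:**
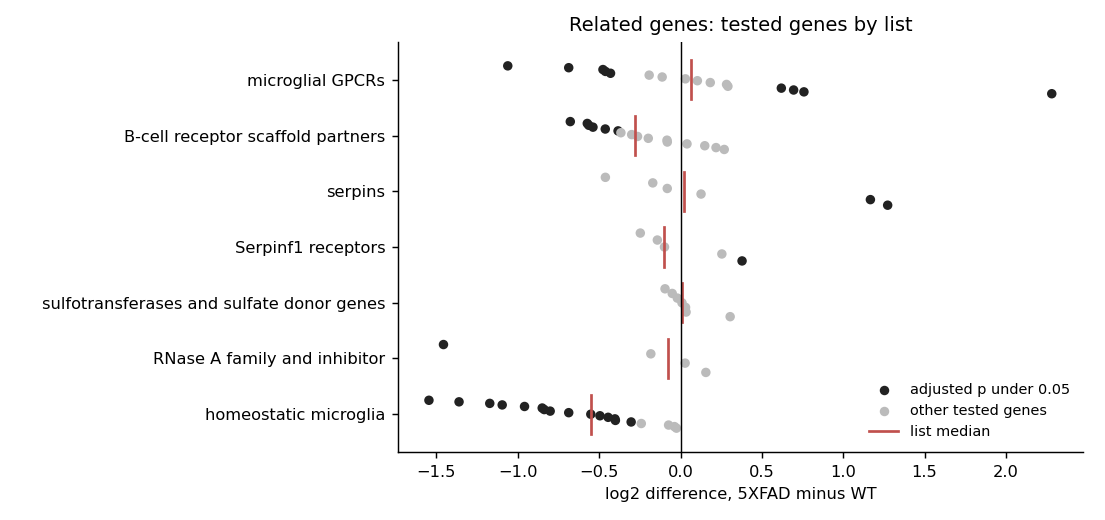
Log2 difference, 5XFAD minus WT, of each tested gene in the 7 lists related to the 5 genes; black points passed an adjusted p of 0.05, grey points did not, and the red line is the median of the list. The homeostatic list lies to the left of 0 (median -0.55), the receptor list is spread to both sides, and the sulfotransferase list stays between -0.10 and 0.31.

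The tested genes on each side of the 5 were read from the same model. Of 20 such genes, 7 fell and 1 rose in 5XFAD, where 6.77% of all tested genes fell and 8.23% rose. Beside Gpr165, the nearest genes Msn and Yipf6 differed by 0.04 ± 0.11 (adjusted p = 0.883) and 0.29 ± 0.15 (adjusted p = 0.224), and Stard8 fell by 0.72 ± 0.19 (adjusted p = 0.0117). Beside Bank1, Slc39a8, a zinc transporter gene, fell by 0.55 ± 0.18 (adjusted p = 0.0444), and Ppp3ca, a calcineurin subunit gene, differed by -0.26 ± 0.12 (adjusted p = 0.173). Serpinf2, the serpin gene next to Serpinf1, differed by 0.13 ± 0.13 (adjusted p = 0.589; -0.0172 with Xist in the model). Beyond it Wdr81 fell by 0.52 ± 0.13 (adjusted p = 0.00648).

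Beside Sult1a1, Bola2 rose by 1.38 ± 0.15 (adjusted p = 1.2e-06) while Slx1b fell by 0.36 ± 0.11 (adjusted p = 0.0312). Beside Rnase12, Rnase6 fell as given above, Pnp, a purine nucleoside phosphorylase gene, fell by 0.60 ± 0.14 (adjusted p = 0.00474) and Pip4p1 by 0.44 ± 0.12 (adjusted p = 0.0143). The calls of Stard8, Slc39a8 and Slx1b were lost without WT 1, WT 2, 5XFAD 1 and 5XFAD 2 (adjusted p 0.404, 0.573 and 0.505). That of Slc39a8 was also lost without WT 1, 2, 3 or 4, without 5XFAD 1, 2 or 4, without Trem2-/- 2 and without Trem2-/-5XFAD 1, 2, 3 or 5. That of Slx1b was lost without WT 1, 2 or 3 and without 5XFAD 1, 3 or 4, that of Stard8 without WT 2, and that of Pip4p1 without WT 3 or 4. With only the WT and 5XFAD groups in the fit, the calls of Stard8, Slc39a8, Slx1b and Pip4p1 were lost (adjusted p 0.0542, 0.122, 0.0881 and 0.0761). With Xist in the model those of Slc39a8 and Pip4p1 were lost (adjusted p 0.0746 and 0.0844). Over all alternatives, Stard8 lost its call in 3, Slc39a8 in 19, Slx1b in 10 and Pip4p1 in 4. Since the 5 genes were picked for large falls, smaller differences beside them say nothing about how far a change extends.

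**Figure D4:**
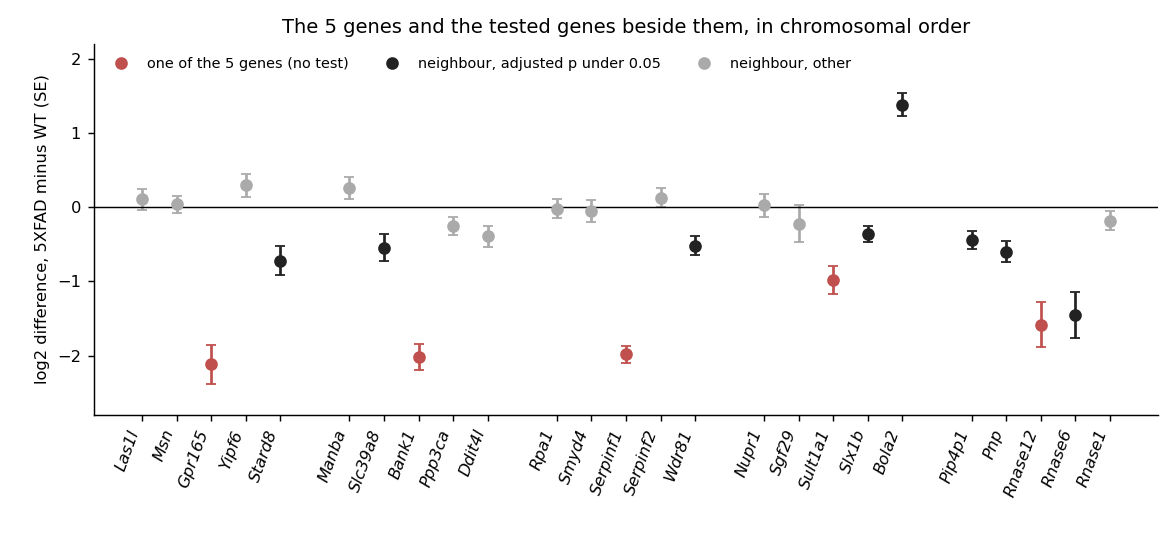
Log2 difference, 5XFAD minus WT, with SE, of the 5 genes (red) and the 2 nearest tested genes on each side (black: adjusted p under 0.05; grey: other), in the order of the chromosome. Gpr165, Bank1 and Serpinf1 stand near -2 between neighbours from -0.72 to 0.29, and Rnase12 (-1.58) stands beside Rnase6 (-1.46).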

How the data were processed

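The authors deposited a table of linear intensity values, 1 per probe set, for 24679 probe sets on 20 arrays; per the labels, biotinylated cRNA was made from total RNA of sorted microglia. Their summary and normalization are not stated in the sources used here; array medians lay between 25.7 and 28.6, so the arrays were on a common scale. The platform annotation named 1 gene for 21354 probe sets, several for 1275 and none for 2050; 21277 matched the RefSeq table of GRCm38.p6, used for names and gene order. The probe set with the highest mean stood for a gene.

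Values were taken as log2(intensity + 1). Genes above the 40th percentile of the array on at least 4 of the 19 assigned arrays were tested (12728 of 19751) with limma (version 3.58.1, under R 4.3.3). A single model held all 4 groups, with 15 residual and 5.29 prior degrees of freedom, and Benjamini-Hochberg adjustment over all tested genes at 0.05. "Fell", "rose" and "called" mean passing that threshold; errors of differences are standard errors. The number of arrays limits the precision. The script was tested on simulated data. The 5 genes and all lists were chosen with earlier results of these data known. Named besides the 5 are the 3 genes nearest in pattern, the 2 tested neighbours on each side, markers, and, per list, the 4 genes with the smallest p or any that passed. Alternatives were another pseudocount (16), no low filter, 2 other normalizations, the mean of probe sets, fewer groups in the fit, the array with conflicting labels in either group, Xist as covariate, leaving out arrays with foreign transcripts, an intensity trend, a replicate block and leaving out each array.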

Additional observations from a re-analysis of the deposited data

Results flagged for a closer look

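In 28 groups of values looked at (the 5 genes and a few checks in each genotype), an array far from the others of its group was found in 2; some such groups arise by chance. Gpr165 on Trem2-/-5XFAD 1 was 7.79, while the other 5 arrays of that group lay between 8.41 and 8.78. Trem2 on WT 4 was 11.14, while the other 3 WT arrays lay between 11.36 and 11.39.

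Among 45 named genes that are not the 5, the response to 5XFAD without Trem2 differed from that with Trem2 by limma's interaction term for these 6. Of all tested genes, 1.02% were called higher and 1.58% lower in this term. Adgrg1, Crybb1, Tmem119, Ecscr and Slc2a5 were named for a small p in 5XFAD minus WT, which is part of this term. Their p-values are thus no independent evidence. The difference of responses was 0.87 for Adgrg1 (adjusted p = 8.9e-04), 0.94 for Crybb1 (adjusted p = 0.00643), 0.69 for Tmem119 (adjusted p = 0.00385), 1.24 for Ecscr (adjusted p = 6.7e-04) and 0.81 for Slc2a5 (adjusted p = 0.00905). The 5XFAD minus WT differences of these 5 genes, in the same order, were -1.06, -1.55, -0.96, -1.36 and -1.17, and those of Trem2-/-5XFAD minus Trem2-/- were -0.20, -0.60, -0.27, -0.12 and -0.36. Bola2 is the tested gene beyond Slx1b on the same side of Sult1a1. Its difference of responses was -0.88 (limma adjusted p = 0.0276), with 1.38 in mice with Trem2 and 0.51 without it. That result passed in 26 of 31 alternatives; it did not pass without WT 1, WT 2, 5XFAD 1 and 5XFAD 2 (-0.59, adjusted p = 0.159), without Trem2-/- 1 and Trem2-/-5XFAD 1 (adjusted p = 0.103), with a replicate block (0.0883), without Trem2-/- 1 (0.0693) or without 5XFAD 1 (0.0528).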

How the results depend on the processing

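Over 32 alternatives, the 5XFAD minus WT differences of all 5 genes stayed negative, and over 31 the changed responses of Gpr165, Bank1, Serpinf1 and Rnase12 stayed positive. With a pseudocount of 16 the 5XFAD minus WT difference of Serpinf1 was -1.80 and the changed response of Rnase12 was 1.52. Without WT 1, WT 2, 5XFAD 1 and 5XFAD 2 the difference of Bank1 was -2.31, its changed response 1.66, and Rnase12 in Trem2-/- minus WT -1.44 (adjusted p = 0.0722). The latter was -1.56 (adjusted p = 0.0690) when only its own groups entered the fit and -1.34 (adjusted p = 0.127) with the array of conflicting labels in WT, and ran from -1.75 to -1.36 when each array was left out; the cause was not tested. With that array in WT, Serpinf1 in Trem2-/- minus WT was 0.00204 (adjusted p = 0.997), and with Xist in the model Serpinf2 in 5XFAD minus WT was -0.0172; neither was called. The sign of Sult1a1 in Trem2-/-5XFAD minus 5XFAD was the same in 29 of 32 alternatives, and that of its changed response in 30 of 31. No interaction could be fitted from the groups of a single contrast.

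Genes called in 5XFAD minus WT numbered 1909, and 1395 to 2043 over the alternatives that leave out no single array. The 78 genes in Trem2-/- minus WT became 11 with only its groups, 271 without WT 1, WT 2, 5XFAD 1 and 5XFAD 2, and 30 to 159 on leaving out 1 array (159 without WT 2, 30 without Trem2-/- 1). The 278 genes in Trem2-/-5XFAD minus Trem2-/- became 146 without Trem2-/- 1 and Trem2-/-5XFAD 1, and 158 without Trem2-/- 3. The 977 in Trem2-/-5XFAD minus 5XFAD became 579 without the 4 arrays with salivary gland transcripts, and the 331 in the interaction became 208 without Trem2-/- 1 and Trem2-/-5XFAD 1.

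With a replicate block on the number in the titles, the 5XFAD minus WT differences were -2.26 for Gpr165, -2.05 for Bank1, -1.99 for Serpinf1, -0.95 for Sult1a1 and -1.45 for Rnase12, and Rnase12 in Trem2-/- minus WT had an adjusted p of 0.0495. The block changed the count of genes called in Trem2-/- minus WT from 78 to 38 and in Trem2-/-5XFAD minus Trem2-/- from 278 to 183. Deviations of the 25 pairs with the same number correlated at -0.10 to 0.17 (median 0.01), and 5 of 19 arrays correlated best with their own number, so the numbers were not taken to pair the samples. Levels of Rnase12 near the 40th percentile limit its precision.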

Other observations

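The array titled WT but with a Trem2-/- genotype had log2 values of 9.52 for Gpr165, 8.59 for Bank1, 7.97 for Serpinf1, 8.29 for Sult1a1 and 5.07 for Rnase12. It belongs to no group here, and its values are given as measured.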
